A study of Mus musculus with 23 samples.

Results

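9 mouse genes used as markers of pancreatic duct or of simple epithelium were followed through all 4 groups of a study of glucagon receptor (GCGR) loss. They were the keratins Krt7, Krt8, Krt18, Krt19 and Krt23, the secreted phosphoprotein Spp1, the transcription factor Sox9, the adhesion molecule Epcam and the chloride channel Cftr. They were taken by gene symbol, and all 9 were found both among the 28096 genes of the sorted alpha cell table and among the 22412 genes of the tissue table.

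RNA was sequenced in bulk from 23 libraries. Of these, 8 came from FACS-sorted alpha cells, which make glucagon, of tamoxifen-treated mice: 5 from homozygous GCGR knockouts and 3 from heterozygous GCGR animals. Tamoxifen was given intraperitoneally at 200 mg/kg for 5 days, and islets were taken 14 to 21 days later. The other 15 libraries were 7 tumors and 8 samples of non-tumor pancreatic tissue, and both came from homozygous knockouts labelled as untreated, so neither is a receptor-carrying control. The labels name no promoter or Cre driver, no strain and no age, and do not say that each library is a separate animal, so the p-values cover only the spread among libraries.

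Keratins of simple epithelia assemble from obligate pairs of a type II chain (Krt7, Krt8) and a type I chain (Krt18, Krt19, Krt23). Krt8 and Krt18 form the general pair of simple epithelia and are found in acinar as well as duct cells, while Krt7 and Krt19 are the classical duct keratins of the pancreas. Sox9 marks duct cells and their embryonic progenitors, Cftr secretes anions from duct cells, Epcam is an adhesion molecule of most epithelia, and Spp1 (osteopontin) is secreted by duct cells and also by macrophages.

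Values are RPKM, read counts scaled by gene length and library size, and tests are limma fits on log2(RPKM + 1) with Benjamini-Hochberg adjustment over all tested genes and a threshold of 0.05. Gcg, which encodes glucagon, was at 284366 to 439382 RPKM in knockout alpha cells, 209220 to 387094 RPKM in heterozygous alpha cells, 136765 to 195228 RPKM in the 7 tumors and 34.3 to 455 RPKM in non-tumor tissue. Gcgr was listed at 0 in 7 of the 8 alpha cell libraries, heterozygous ones included, and in all 7 tumors, so its level does not check the labels. The tissue libraries held 28.955 to 36.432 M reads (M, 1e6) in the denominator of the tumors and 11.785 to 21.827 M in the non-tumor libraries, while the depth of the alpha cell libraries is unknown. Acinar genes made up most of the non-tumor signal, with 14 genes summing to 3641 to 108965 RPKM in tumors, against 360627 to 469205 RPKM in non-tumor tissue. The median tested gene stood 1.46 higher on the log2 scale in tumors than in non-tumor tissue, so each tissue fold change is also given after every library was set to the same median gene (centred).

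Krt7 (chr15:101411043-101430313, plus strand), Krt8 (chr15:101996698-102004482, minus strand) and Krt18 (chr15:102028180-102032027, plus strand) lie in or beside the type II keratin cluster (GRCm38), with Krt8 and Krt18 only 24 kb apart and Krt7 566 kb from Krt8. Krt19 (chr11:100140810-100148665, minus strand) and Krt23 (chr11:99477974-99493137, minus strand) lie in the type I cluster. Because the 3 neighbours on chromosome 15 differed in how far they moved in tumors, their RefSeq promoter windows (GRCm38.p6, 250 bases before to 50 after the annotated start, 5′ to 3′ on the gene's strand) are shown, with matches to TATAAA and GGGCGG on either strand in capitals.
Krt7, chr15:101412153-101412452, plus strand: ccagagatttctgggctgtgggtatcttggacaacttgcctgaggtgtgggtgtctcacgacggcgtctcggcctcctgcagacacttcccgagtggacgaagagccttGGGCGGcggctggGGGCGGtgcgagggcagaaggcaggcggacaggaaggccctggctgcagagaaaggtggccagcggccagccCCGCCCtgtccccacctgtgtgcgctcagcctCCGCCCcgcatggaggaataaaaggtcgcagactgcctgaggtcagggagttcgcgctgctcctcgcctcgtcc
Krt8, chr15:102004293-102004592, minus strand: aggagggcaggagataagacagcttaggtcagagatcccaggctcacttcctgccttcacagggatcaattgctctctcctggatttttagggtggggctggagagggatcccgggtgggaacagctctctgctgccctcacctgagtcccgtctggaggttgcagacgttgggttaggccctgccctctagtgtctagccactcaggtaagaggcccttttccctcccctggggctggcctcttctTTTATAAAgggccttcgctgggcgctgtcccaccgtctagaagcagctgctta
Krt18, chr15:102027966-102028265, plus strand: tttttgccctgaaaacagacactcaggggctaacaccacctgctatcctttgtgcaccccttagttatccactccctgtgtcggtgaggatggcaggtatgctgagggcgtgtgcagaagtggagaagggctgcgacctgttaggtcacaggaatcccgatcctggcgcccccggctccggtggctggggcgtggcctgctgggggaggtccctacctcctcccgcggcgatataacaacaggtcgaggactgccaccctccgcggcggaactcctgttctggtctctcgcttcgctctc

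The windows are set by RefSeq starts, which for these 3 genes lie inside the GENCODE gene bounds given above. The whole Krt7 window lies within those bounds. The Krt7 window holds 4 matches to GGGCGG, the motif of Sp1, and no TATA box word. The Krt8 window holds the TATA box word on both strands, in 2 matches that overlap each other at the annotated start, and no Sp1 word, and the Krt18 window holds neither. Over 32851 mouse windows of this length, 35.66% hold the Sp1 word and 13.62% the TATA box word. Searched on both strands as well were CCAAT, held by 37.41% of windows, and the SOX-like word AACAAT, held by 10.72%, and neither was in the 3 windows. A window was at hand for 7 of the 9 genes; those of Krt23, Spp1, Epcam and Cftr were searched too and are not printed. Epcam held 1 Sp1 word, Cftr held 6 of them and 1 CCAAT box, the upstream Spp1 window held 1 TATA box word and 1 CCAAT box, and Krt23 held none of the 4 motifs.

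Of the 9 genes, 5 were endocrine-expressed, meaning a median of 1 RPKM or more over the 8 alpha cell libraries. These were Epcam (median 36.8 RPKM), Spp1 (24.8 RPKM), Krt18 (17.5 RPKM), Krt7 (15.7 RPKM) and Krt8 (3.73 RPKM). The other 4, Krt19, Krt23, Sox9 and Cftr, were listed at 0 in all 8 alpha cell libraries and are called duct-only here, which says nothing about cells outside these tables. A listed 0 in that table can be a failed estimate. Over all 19126 genes listed for both alpha cells and tissue, 5005 were at 0 in all 8 alpha cell libraries. Of 2522 genes with a tissue median above 5 RPKM, 14 were at 0 in all 8 alpha cell libraries, and Krt19 was one of them.

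**Figure D1:**
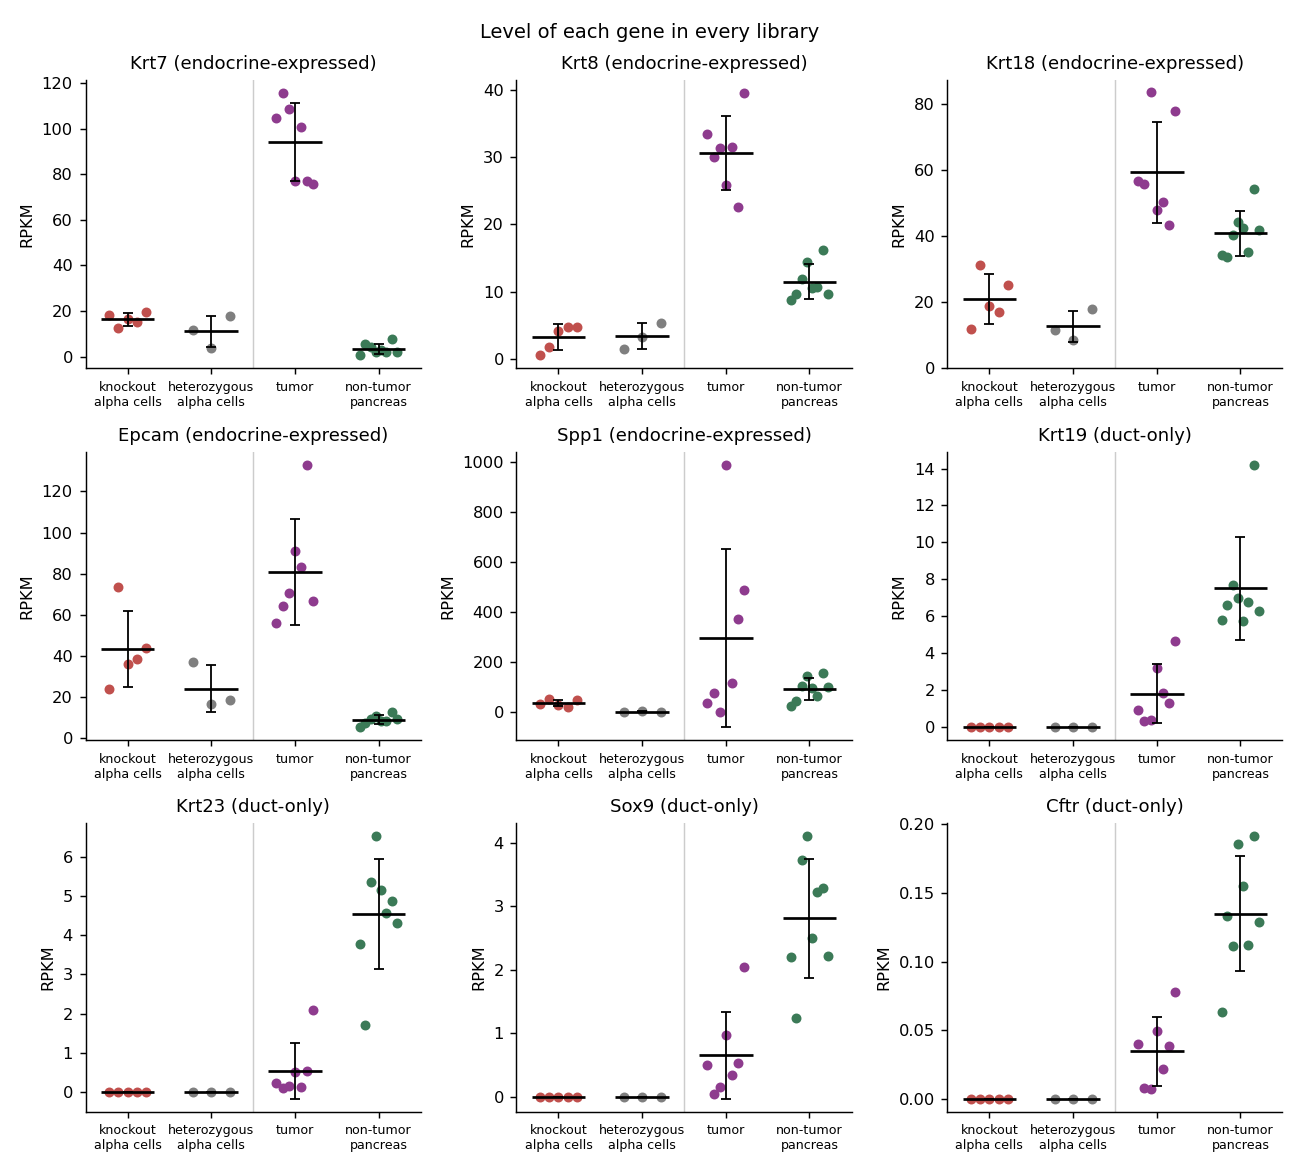
RPKM (y axis, starting at or just below 0) of each of the 9 genes in every library, with 5 knockout and 3 heterozygous alpha cell libraries left of the grey line and 7 tumors and 8 non-tumor samples right of it; bars are mean ± SD. Krt7, Krt8 and Epcam are higher in every tumor than in any non-tumor sample, and Krt19 is lower in every tumor. The share of all genes that lie apart in this way was not counted, while limma called 90.7% of tested genes higher in tumors. The 4 duct-only genes lie at 0 in all alpha cell libraries. Levels left and right of the line come from tables normalized separately.

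Among the alpha cell libraries the type II keratin Krt7 was at 18.4, 12.5, 16.3, 15.1 and 19.6 RPKM in knockout cells, against 11.8, 3.98 and 17.7 RPKM in heterozygous cells. The groups overlapped. Krt7 averaged 16.4 ± 2.77 RPKM in knockout cells (SD, n = 5) and 11.1 ± 6.86 RPKM in heterozygous cells (n = 3), a log2 difference of 0.70 (SE 0.43) that did not pass (limma adjusted p = 0.579).

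Krt18, the general type I keratin, was at 12.0, 31.3, 19.0, 17.1 and 25.2 RPKM in knockout cells, against 11.5, 8.48 and 17.9 RPKM in heterozygous cells. The difference of 0.68 (SE 0.39) did not pass either (limma adjusted p = 0.550). Its partner Krt8 was at 0.592, 1.79, 4.22, 4.72 and 4.80 RPKM in knockout cells, against 1.47, 3.25 and 5.36 RPKM in heterozygous cells. Both groups covered the same range, and the difference was -0.10 (SE 0.57, limma adjusted p = 0.967). Krt8 was also set beside the number of genes detected. In the 4 libraries with under 15000 genes above 0 (knockout 1 and 2, heterozygous 1 and 2) Krt8 lay at 0.592 to 3.25 RPKM, and in the 4 with more it lay at 4.22 to 5.36 RPKM. A limma term for that split was -1.25 for Krt8 and did not pass (adjusted p = 0.406), and within the first 4 Krt8 did not follow the number of genes.

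Epcam was at 24.0, 73.8, 36.3, 38.8 and 43.9 RPKM in knockout cells, against 37.2, 16.5 and 18.8 RPKM in heterozygous cells. The groups overlapped, with a difference of 0.81 (SE 0.39, limma adjusted p = 0.482). A p that missed the threshold with 5 against 3 libraries does not show that Krt7, Krt18, Krt8 or Epcam were at the same level in both groups.

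Spp1 was the exception. It stood at 34.4, 53.6, 28.6, 21.0 and 48.8 RPKM in the knockout libraries, against 0.458, 4.03 and 3.38 RPKM in the heterozygous ones, and the groups did not overlap. Mean levels were 37.3 ± 13.7 RPKM in knockout cells (SD, n = 5) and 2.62 ± 1.90 RPKM in heterozygous cells (n = 3), a ratio of 14.2. The log2 difference was 3.51 (SE 0.47, limma adjusted p = 0.00875), and it was higher in 5 of 5 knockout libraries than in any heterozygous library. Spp1 was therefore 1 of the 5 tested members called, in a comparison in which 0.261% of the 10718 tested genes were called in either direction, 0.159% higher and 0.103% lower. After centring, Spp1 was the one member called again (3.56, adjusted p = 0.00689), against 0.308% of all genes, 0.215% higher and 0.0933% lower. The filter on low values asks for 1 RPKM or more in at least 3 libraries. Spp1 reached 1 RPKM in all 5 knockout libraries but in only 2 of the 3 heterozygous ones. It thus entered the test through the group in which it was higher, and the call is lost without the filter (limma adjusted p = 0.0982).

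Because macrophages also secrete Spp1, their markers were set beside it. Of these, 9 were listed in the alpha cell table, and their levels were summed per library. Knockout library 5 alone stood high, led by Lyz2, C1qc and Cd68, which reached at most 36.7, 26.5 and 11.2 RPKM in knockout cells. The sums were 3.46, 4.83, 10.9, 4.65 and 126 RPKM in knockout libraries 1 to 5, against 13.3, 0.877 and 3.29 RPKM in heterozygous libraries 1 to 3. Acinar markers were summed at 6.97 to 63.8 RPKM in knockout cells and at 11.7, 3070 and 419 RPKM in heterozygous cells, of which library 2 was the highest. Without knockout library 5 and heterozygous library 2, a pair chosen after seeing the data, the Spp1 difference was 3.73 (limma adjusted p = 0.0434), and the part of either cell type in the other libraries was not tested. In bulk libraries fewer cells of a type and less RNA per cell cannot be told apart.

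In tissue, 8 of the 9 genes passed the filter, and Cftr did not, at under 1 RPKM in every library. On the deposited scale 4 of the 8 rose in tumors (Krt7, Epcam, Krt8 and Krt18), 3 fell (Krt19, Krt23 and Sox9) and Spp1 did not pass. The filter asks for 1 RPKM or more in at least 7 libraries. Krt19, Krt23 and Sox9 reached 1 RPKM in all 8 non-tumor libraries but in only 4, 1 and 1 of the 7 tumors. These 3 thus entered the test through the group in which they were higher. The background in this comparison was 94.4% of the 10220 tested genes called, 90.7% higher and 3.68% lower. After centring, 65.3% of all genes were called, 28.6% higher and 36.7% lower, and among the 8 genes Krt7 and Epcam rose, Krt18, Krt19, Krt23 and Sox9 fell, and Krt8 and Spp1 did not pass. A count of called members is thus close to the background here, and the members differ by direction and by whether it holds on both scales. The share of all genes whose groups do not overlap was not counted in either comparison. The median difference was 0.49 over the 8 genes and 1.46 over all tested genes on the deposited scale, and -1.04 against -0.08 after centring.

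**Figure D2:**
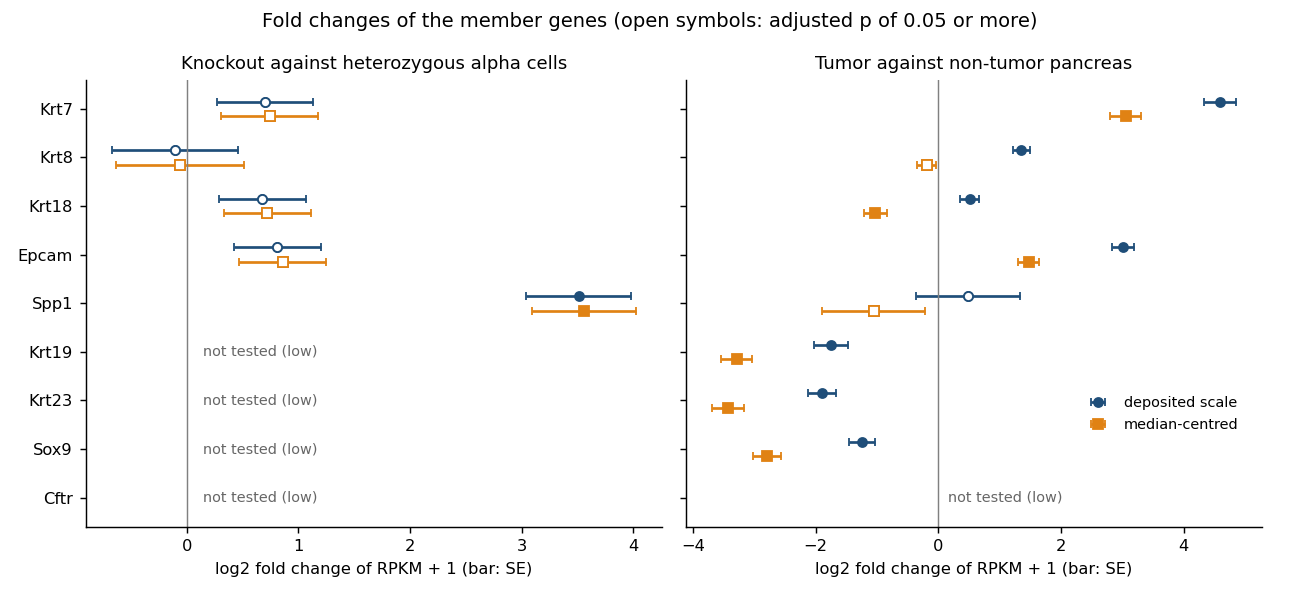
Log2 fold change of RPKM + 1 (x axis, bars are SE) for each gene, knockout over heterozygous alpha cells on the left and tumor over non-tumor tissue on the right, as deposited (circles) and after centring (squares); filled symbols have an adjusted p under 0.05. Spp1 is the one filled pair on the left, at 3.51 and 3.56; on the right the circles of Krt8 and Krt18 (1.35 and 0.51) lie above 0 and their squares (-0.19 and -1.03) below it, while Krt7, Epcam, Krt19, Krt23 and Sox9 keep their side.

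Krt7 showed the largest rise of the 9. The tumors ranged from 75.9 to 116 RPKM with a median of 101 RPKM, against 0.713 to 7.66 RPKM with a median of 2.56 RPKM in non-tumor tissue. Every tumor was above every non-tumor library. The tumors averaged 94.3 ± 17.0 RPKM (SD, n = 7) and the non-tumor samples 3.36 ± 2.24 RPKM (n = 8), a ratio of 28.0 and a log2 difference of 4.59 (SE 0.26, limma adjusted p = 1.48e-11), or 3.05 after centring (adjusted p = 1.53e-08). In reads, Krt7 had 3019 to 4916 in tumors and 21 to 124 in non-tumor tissue.

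Epcam ran from 56.3 to 133 RPKM in tumors with a median of 70.6 RPKM, against 5.61 to 13.0 RPKM with a median of 8.88 RPKM in non-tumor tissue. The groups did not overlap, and the ratio of means was 8.96. The log2 difference was 3.01 (SE 0.18, limma adjusted p = 2.47e-11), or 1.47 after centring (adjusted p = 1.66e-06).

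Krt8 was at 22.6 to 39.5 RPKM in tumors with a median of 31.4 RPKM, against 8.74 to 16.2 RPKM with a median of 10.6 RPKM in non-tumor tissue, with no overlap. Its difference of 1.35 on the deposited scale (SE 0.14, limma adjusted p = 3.46e-08) was close to that of the median gene, and after centring it was -0.19 (adjusted p = 0.286). Krt18 was at 43.5 to 83.6 RPKM in tumors with a median of 55.6 RPKM, against 33.7 to 54.3 RPKM with a median of 41.1 RPKM in non-tumor tissue, and the groups overlapped. Its difference was 0.51 on the deposited scale (SE 0.15, limma adjusted p = 0.00391) and -1.03 after centring (adjusted p = 0.000129), so its direction depends on the scaling. The level of Krt8 is uncertain, since 36.1% of the 50-base words in its coding sequence also occur in the pseudogene Krt8-ps (chr7:23357125-23358069). The corresponding share was 0.818% for Krt18, 1.82% for Cftr and 0 for the other 6 genes. Gapdh and Ppia share 94.2% and 82.1% of their words with other genes. They were listed at 0 to 0.160 and 0.0589 to 0.356 RPKM in tumors, against 0 and 0 to 0.0863 RPKM in non-tumor tissue. Actb, with 18.9% of its words shared, was listed at 139 to 349 RPKM in tumors, against 23.9 to 340 RPKM in non-tumor tissue.

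On the deposited scale the duct-only genes went the other way, while after centring Krt18 fell as they did. Krt19, the classical type I duct keratin, was at 0.326 to 4.64 RPKM in tumors with a median of 1.28 RPKM, against 5.75 to 14.2 RPKM with a median of 6.67 RPKM in non-tumor tissue. Every tumor was below every non-tumor library, and the ratio of means was 0.238. The log2 difference was -1.75 (SE 0.28, limma adjusted p = 8.25e-06), or -3.29 after centring (adjusted p = 7.97e-09). Read counts for Krt19 were 12 to 163 in tumors and 122 to 203 in non-tumor tissue, which was sequenced less deeply.

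Krt23, a type I keratin, was at 0.104 to 2.10 RPKM in tumors with a median of 0.231 RPKM, against 1.70 to 6.53 RPKM with a median of 4.72 RPKM in non-tumor tissue. Only tumor 7 and non-tumor library 2 crossed. Krt23 fell by 1.89 on the log2 scale (SE 0.23, limma adjusted p = 2.17e-07), with a centred difference of -3.43 (adjusted p = 5.95e-09). Sox9 was at 0.0432 to 2.04 RPKM in tumors with a mean of 0.653 ± 0.682 RPKM (SD, n = 7), against 1.25 to 4.10 RPKM with a mean of 2.81 ± 0.940 RPKM (n = 8) in non-tumor tissue. Again tumor 7 overlapped the non-tumor range. Sox9 fell by 1.25 (SE 0.21, limma adjusted p = 1.82e-05), with a centred difference of -2.79 (adjusted p = 1.40e-08), and its lowest tumor, tumor 2, had 2 reads.

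Cftr was at 0.00717 to 0.0778 RPKM in tumors with a median of 0.0380 RPKM, against 0.0631 to 0.191 RPKM with a median of 0.131 RPKM in non-tumor tissue. These levels rest on 1 to 10 reads in tumors and 6 to 15 reads in non-tumor tissue, and tumors 2 and 3 had 1 read each. The value that 3 reads give is 0.0186 to 0.0234 RPKM in tumors, against 0.0310 to 0.0575 RPKM in non-tumor tissue, counting error only. In a fit without the filter the difference was -0.13 on the log2(RPKM + 1) scale, which is compressed at this level (limma adjusted p = 0.000105).

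Spp1 varied most among tumors. In tumors it was 36.8, 76.6, 3.37, 990.3, 117, 372 and 488 RPKM in libraries 1 to 7, against 26.7 to 159 RPKM with a median of 99.4 RPKM in non-tumor tissue. Tumors 4, 6 and 7 stood above all non-tumor libraries and tumor 3 stood below them all, so the highest tumor was 294 times the lowest. The mean difference was 0.48 (SE 0.85, limma adjusted p = 0.585), or -1.06 after centring (adjusted p = 0.279), neither of which passed. It was 1.27 without tumor 3 (adjusted p = 0.0549) and -0.03 without tumor 4 (adjusted p = 0.966), so its direction rested on single tumors. Spp1 had 94 reads in tumor 3 and 32038 in tumor 4.

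In tumors 4 and 7, both among the highest for Spp1, duct-only genes were also high. Tumor 7 had the highest level of Krt19, Krt23, Sox9 and Cftr among the 7, and tumor 4 was the second highest for Krt19, Sox9 and Cftr. The spread within tumors, highest over lowest, was 14.2 for Krt19, 20.2 for Krt23, 47.2 for Sox9 and 10.9 for Cftr, against 1.53 for Krt7, 1.75 for Krt8, 1.92 for Krt18 and 2.36 for Epcam. Tumor 7 also had the highest summed acinar markers, 108965 RPKM against 3641 to 44349 RPKM in the other 6 tumors, led by Ctrb1, Prss2 and Cpa1. Its other duct genes summed to 570 RPKM, against 111 to 301 RPKM in the other 6 tumors. Most of the sum in tumor 7 was Clu alone, at 397 RPKM. Clu stood at 293 to 410 RPKM in non-tumor tissue. Macrophage markers, led by C1qa, C1qb and Lyz2, summed to 139 to 641 RPKM in tumors, against 10.4 to 280.0 RPKM in non-tumor tissue. In tumors 1 to 7 they summed to 369, 143, 139, 641, 321, 222 and 438 RPKM. The highest and the lowest tumor were thus the same for them and for Spp1, but tumor 6, the third highest for Spp1, was the fifth for them, and tumor 1, the second lowest for Spp1, was the third. Non-tumor library 2, with the highest sum outside tumors, had Spp1 at 46.3 RPKM, the second lowest of its group. Fibroblast and mural cell markers, led in tumors by Col3a1, Col1a2 and Col1a1, summed to 219, 121, 51.6, 479, 277, 288 and 603 RPKM in tumors 1 to 7, against 15.2 to 176 RPKM in non-tumor tissue. Tumors 7 and 4 were the highest for them and tumor 3 the lowest. Tumor 4 was also the highest of the 7 for beta cell markers, led by Ins2, Ins1 and Iapp, with 7591 RPKM against 68.6 to 1570 RPKM in the other 6, and for endothelial markers, led by Plvap, Pecam1 and Emcn, with 218 RPKM against 74.1 to 212 RPKM. The part of any of these cell types in the values of Spp1 and the duct-only genes was not tested. Without tumor 7 and non-tumor library 2 together, a pair chosen after seeing the data, Krt19 differed by -1.96, Krt23 by -2.22 and Sox9 by -1.52, each still past the limma threshold (adjusted p = 1.51e-06, 7.13e-11 and 9.09e-08).

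**Figure D3:**
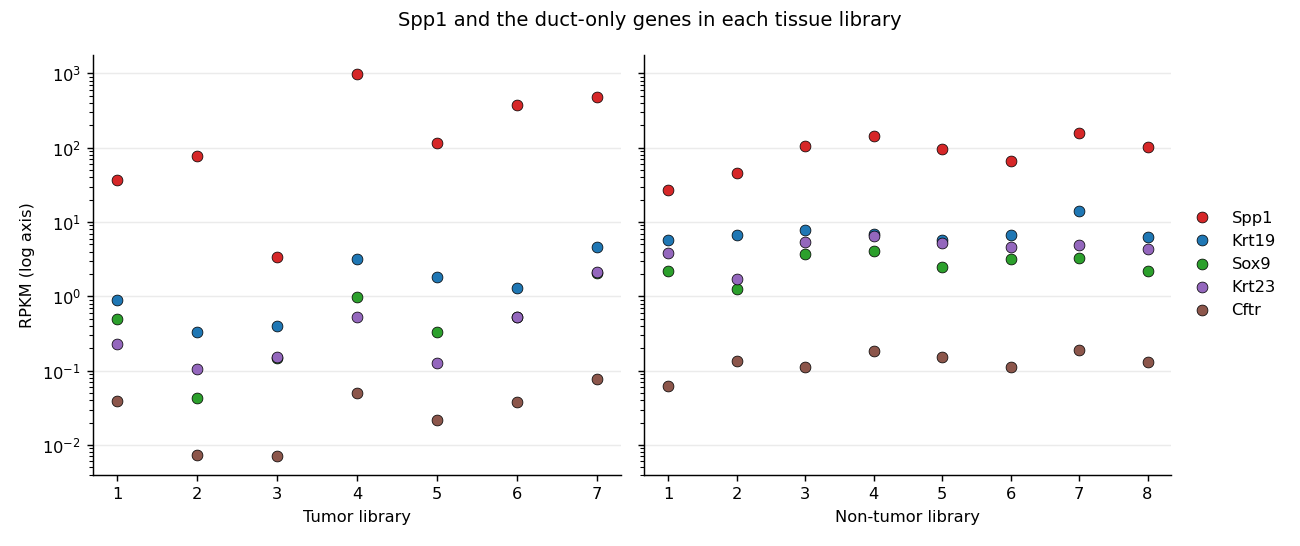
RPKM on a log axis of Spp1 and the 4 duct-only genes in each of the 7 tumors (left) and 8 non-tumor libraries (right). Spp1 runs from 3.37 to 990.3 RPKM over the tumors, and tumor 7 has the highest Krt19, Krt23, Sox9 and Cftr of the 7; some Krt23 points cover those of Sox9.

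Differences of log2(RPKM + 1) taken within a library depend less on how that library was scaled than a level does, but the added 1 weighs on low genes such as Krt19. Krt18 minus Krt8, the general type I chain against the general type II chain, averaged 0.91 ± 0.23 in tumors (SD, n = 7) and 1.75 ± 0.15 in non-tumor tissue (n = 8), and the groups did not overlap. The difference of -0.84 had a two-sided exact permutation p of 0.000311, the smallest that 6435 regroupings allow, and 0.000622 after adjustment over 6 tests. Krt19 minus Krt18 averaged -4.58 ± 0.87 in tumors and -2.33 ± 0.26 in non-tumor tissue, a difference of -2.25 (exact permutation p = 0.000311, adjusted 0.000622) that was -2.94 and -3.07 with pseudocounts of 0.1 and 0.01. Krt7 minus Krt8 averaged 1.59 ± 0.32 in tumors and -1.65 ± 0.62 in non-tumor tissue, a difference of 3.24 (exact permutation p = 0.000311, adjusted 0.000622). Krt7 thus lay above Krt8 in every tumor and below it in every non-tumor library, although the level of Krt8 itself is uncertain for the shared sequence given above. The 3 differences restate the levels given above in the same libraries, so their p-values are not separate evidence. How often other gene pairs reach such a p was not tested.

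Between knockout and heterozygous alpha cells none of the 3 within-library differences passed. Krt18 minus Krt8 averaged 2.47 ± 0.79 in knockout and 1.69 ± 0.60 in heterozygous cells (exact permutation p = 0.214, adjusted 0.257). Krt7 minus Krt8 averaged 2.19 ± 0.84 in knockout and 1.38 ± 1.08 in heterozygous cells (exact permutation p = 0.357, adjusted 0.357). Krt19 minus Krt18 is there only the level of Krt18 with its sign turned, because Krt19 was listed at 0 (exact permutation p = 0.143, adjusted 0.214). With 5 against 3 libraries, 56 regroupings allow no p below 0.0357, and a single difference at that p could not pass after adjustment over the 6 tests.

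**Figure D4:**
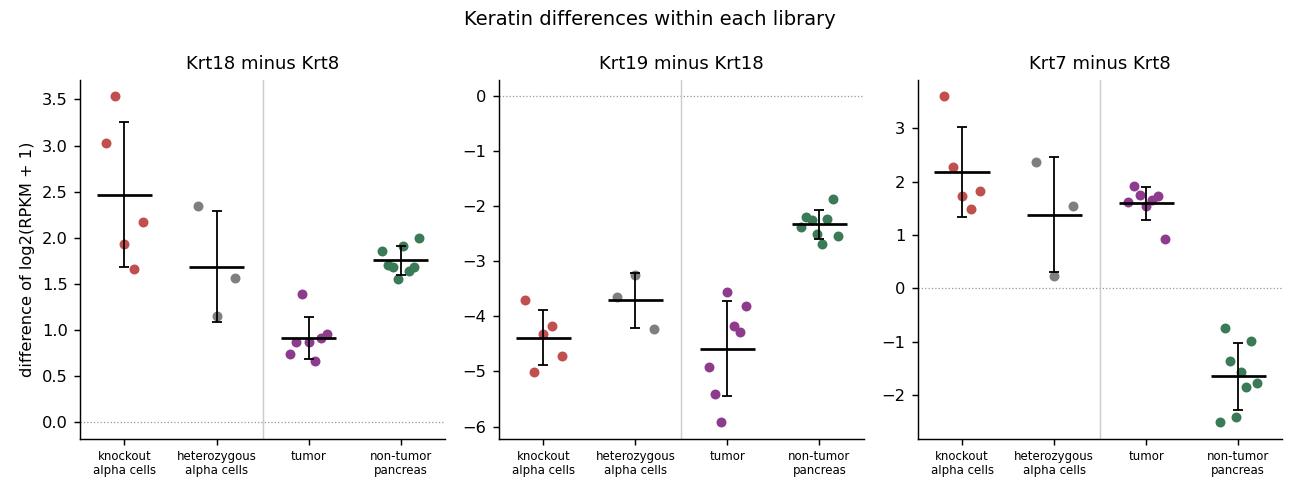
Difference of log2(RPKM + 1) between the named keratins within each library (y axis), by group; bars are mean ± SD, dotted line at 0. In the Krt7 minus Krt8 panel the 7 tumors lie above 0 and the 8 non-tumor libraries below it, and the alpha cell groups overlap in all 3 panels.

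The order of levels within a group, by medians per length, was Epcam, Spp1, Krt18, Krt7, Krt8 in knockout alpha cells and Epcam, Krt7, Krt18, Spp1, Krt8 in heterozygous ones. Neighbours in these orders overlapped except Krt7 and Krt8 in knockout cells and Krt18 and Spp1 in heterozygous cells. In tumors it was Spp1, Krt7, Epcam, Krt18, Krt8, Krt19, Sox9, Krt23 and Cftr, with ranges apart between Krt18 and Krt8, between Krt8 and Krt19 and between Krt23 and Cftr. In non-tumor tissue it was Spp1, Krt18, Krt8, Epcam, Krt19, Krt23, Sox9, Krt7 and Cftr, with ranges apart between Krt18 and Krt8 and between Krt7 and Cftr. Krt7 thus held second place in tumors and eighth in non-tumor tissue.

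Among all keratin genes, the 5 above included, 38 of 51 were listed at 0 in every alpha cell library and 25 of 54 in every tissue library. Outside the 5 keratins above, a median of 1 RPKM or more in a group was reached by Krt10 (heterozygous alpha cells), by Krt222 (both alpha cell groups and tumors) and by Krt90 (tumors). Krt222, an atypical keratin-like gene, averaged 2.56 ± 1.12 RPKM in the tumors and 0.0891 ± 0.179 RPKM outside them. The difference was 1.66 (limma adjusted p = 1.57e-08), or 0.12 after centring (adjusted p = 0.454). Krt222 reached 1 RPKM in 7 tumors and 0 non-tumor libraries, so it passed the tissue filter through the tumors. It was at 2.37 ± 1.41 RPKM in knockout and 6.35 ± 9.06 RPKM in heterozygous alpha cells, with heterozygous library 2 at 16.8 RPKM. Krt90 was at 1.06 ± 0.113 RPKM in tumors and listed at 0 in 6 of 8 non-tumor libraries, and was below the filter. Krt10 stood at 0.679 ± 0.644 RPKM in knockout and 1.10 ± 0.753 RPKM in heterozygous alpha cells.

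Among 22 other duct genes, 14 were tested in tissue; 6 rose in tumors, 5 fell and 3 did not pass on the deposited scale, where 90.7% of all tested genes rose and 3.68% fell. After centring 1 was higher, 10 were lower and 3 did not pass, where 28.6% of all tested genes were higher and 36.7% lower. Their median difference was 0.44, where that of all genes was 1.46. Muc1, an apical mucin, fell by 2.91 (limma adjusted p = 5.20e-07; -4.45 after centring), with 6.81 ± 6.92 RPKM in tumors, against 44.7 ± 11.9 RPKM in non-tumor tissue. Cldn4, a tight junction claudin, rose by 3.74 (adjusted p = 4.10e-06; 2.20 after centring), with 36.4 ± 16.5 RPKM in tumors, against 1.07 ± 0.494 RPKM in non-tumor tissue. Tumor 1 was the exception for Cldn4, at 0.602 RPKM where the other 6 stood at 32.1 to 47.9 RPKM. The epithelial transcription factor Elf3 rose by 1.28 on the deposited scale (adjusted p = 1.87e-06) and was at -0.26 after centring (adjusted p = 0.256). In alpha cells 11 of these genes were tested and none was called by limma (adjusted over all genes). Of all 10718 tested genes 0.261% were called there, so a count of 0 is near the background and does not show equal levels. Tspan8 had the lowest adjusted p, at -1.43 (adjusted p = 0.361), with 3.33 ± 1.95 RPKM in knockout and 10.6 ± 5.77 RPKM in heterozygous cells, followed by Prom1 (adjusted p = 0.518), with 10.7 ± 6.21 RPKM in knockout and 23.7 ± 13.7 RPKM in heterozygous cells, and Hes1 at -0.78 (adjusted p = 0.585).

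Among 18 epithelial junction genes, 17 were tested in tissue; 13 rose, 2 fell and 2 did not pass on the deposited scale, a smaller share rising than the 90.7% of all tested genes. After centring 2 were higher, 10 were lower and 5 did not pass, where 28.6% of all tested genes were higher and 36.7% lower. The median difference was 1.18 for the junction genes and 1.46 for all tested genes on the deposited scale. Spint2, a membrane protease inhibitor, was highest, at 469 ± 87.7 RPKM in tumors, against 50.1 ± 4.00 RPKM in non-tumor tissue, a rise of 3.18 (limma adjusted p = 3.65e-13) and of 1.64 after centring. Its relative Spint1 rose by 1.66 and the splicing regulator Esrp1 by 1.97 on the deposited scale (adjusted p = 3.93e-11 and 1.72e-10), with centred values of 0.12 (adjusted p = 0.422) and 0.43 (adjusted p = 0.0109). In alpha cells 14 were tested and none was called on the deposited scale, where 0.261% of all tested genes were called. After centring 1 was called, where 0.308% of all tested genes were. Spint2 was nearest, at 87.6 ± 6.82 RPKM in knockout and 35.3 ± 6.84 RPKM in heterozygous cells, with no overlap, a difference of 1.30 (limma adjusted p = 0.0620) that passed after centring (1.35, adjusted p = 0.0487). Jup, a plaque protein, and the adhesion molecule Cdh1 were at -0.82 and -0.86 (adjusted p = 0.459 and 0.476).

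Within the tissue groups, the genes whose deviations from the group mean were most like those of each of 4 members were listed over 15 libraries and 10220 genes, as a description. All points share their library and its depth. For Krt8 they were Cenpb, Lmna and Rgma (Pearson r = 0.935, 0.927 and 0.892), and Krt18 was at 0.864. For Krt19 they were Mmp15, Tgif1 and Ces2g (r = 0.919, 0.907 and 0.895), and for Spp1 they were Jam2, Hhex and Cx3cl1 (r = 0.914, 0.908 and 0.902). For Sox9 the likest gene was Krt23 (r = 0.948), followed by Fgfrl1 and Mt2 (r = 0.918 and 0.902).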

How the data were processed

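Bulk RNA-seq of 8 sorted alpha cell libraries and 15 tissue libraries was used as 2 tables of RPKM values that the authors deposited. The file headers name no unit; RPKM was read from the values. CASAVA 1.8, GSNAP and GRCm38 are listed, without roles, per the submitters' processing notes; which counter and annotation made the table is not given in the sources used here. Tissue values were whole reads over the coding length (99.25% to 99.69% of low values within 0.1 of a read), with 5905270 to 15153134 reads recovered per library as lower bounds. Alpha cell values could not be fitted to coding lengths, so their depth is unknown and levels are not compared across tables by a test.

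Genes with 1 RPKM or more in at least 3 (alpha cells) or 7 (tissue) libraries entered limma 3.58.1 (R 4.3.3, trend) on log2(RPKM + 1), a scale that understates the change of low genes. Each table was fitted alone, knockout against heterozygous and tumor against non-tumor, two-sided and without covariates. Within-library keratin differences were tested by exact permutation (scipy 1.17.1, Python 3.11.15). The fits were tested on simulated data. Positions are from GENCODE and promoter windows from RefSeq.

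All 9 members are named. Also named were the 3 genes of lowest adjusted p per comparison among 22 other duct and 18 epithelial junction genes, other keratins with a group median of 1 RPKM or more, the 3 genes of likest pattern for Krt8, Krt19, Spp1 and Sox9, and the leading marker genes. Alpha cell, beta cell, acinar, macrophage, lymphocyte, endothelial and fibroblast markers served as checks. Members and lists were chosen with earlier results of these data known. Alternatives tried were other scalings (median centring or quantile normalization), library weights, smaller pseudocounts (0.1, 0.01), another filter (none, or 5 RPKM on average), the replicate number as a block, a term for how many genes a library detected, and leaving out each library.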

Additional observations from a re-analysis of the deposited data

Results flagged for a closer look

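Dixon's test was applied to log2(RPKM + 1) in 23 groups of 4 to 10 libraries, and chance flags about 1 in 20 of them. Flags can differ on the RPKM scale in which the values are given here. It marked 3 values as far from the rest of their group. Krt23 in tumor 7 was the highest of 7 tumors at 2.10 RPKM, a library that also had the highest Krt19, Sox9 and Cftr of the tumors. Krt19 in non-tumor library 7 was the highest of 8 at 14.2 RPKM. Krt23 in non-tumor library 2 was the lowest of 8 at 1.70 RPKM. That library had the highest summed macrophage markers of the non-tumor libraries, at 280.0 RPKM. Its lymphocyte markers summed to 134 RPKM, also the highest of its group, with non-tumor library 6 next at 13.6 RPKM. What sets these values apart was not tested.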

How the results depend on the processing

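Among the 5 tested genes of the alpha cell comparison, the count called was 1 and stayed at 1 when any 1 library was left out, with Spp1 at 2.95 to 3.84. It was 0 with no filter (Spp1 3.51, adjusted p = 0.0982), where limma called 0 of all genes and 1443 had an unadjusted p under 0.05. It was also 0 with the replicate number as a block (Spp1 3.60, limma adjusted p = 0.117). Same-numbered alpha cell libraries deviated together with r of 0.00127 to 0.0872 and tissue ones with r of -0.222 to 0.149. Only for alpha cell number 3 were the same-numbered libraries each other's best match. Low r values cannot exclude pairing, so whether the numbers pair libraries is not known. Over all alpha cell genes, calls ranged from 0 with no filter to 90 with array weights, and were 2 with the block and 7 without heterozygous library 2, against 28. Among the 8 tested genes of the tissue comparison the count called was 7, and 7 with any 1 library left out or with the block. It was 4 with a mean of at least 5 RPKM, under which fewer genes were tested. Over all tissue genes, limma called 9567 to 9731 of 10220 with any 1 library left out and 9601 with the block. With a mean of at least 5 RPKM it called 4087 of 4275. A steady count of 7 is thus close to the background. Krt8 and Krt18 reversed, to -0.19 and -1.03 with centring and to -0.26 and -0.99 with quantile normalization, both of which move the median gene by construction. The 3 within-library tissue differences kept their call and direction with each library left out, both pseudocounts and the block (Krt18 minus Krt8 -0.80, Krt19 minus Krt18 -2.28, Krt7 minus Krt8 3.22). Those in alpha cells are not read for stability, since 5 against 3 libraries leave little room to pass. Depth limits Cftr, at 1 to 15 reads, and Sox9 in tumor 2, at 2 reads.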
